A study of Mus musculus with 40 samples.

Results

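Th2 polarisation of naive cells labelled Setdb1 KO was followed in 6 RNA libraries, 3 of naive CD4 T cells and 3 of T helper 2 (Th2) cells grown from such cells, out of 40 samples in the whole study. The libraries were chosen by their labels and column names, and no measured value entered the choice. All cells were spleen CD4 T cells of C57BL/6 mice, with the strain given as Setdb1-/- for the 6 libraries and Setdb1+/+ for the wild-type (WT) reference of 4 naive and 3 Th2 libraries. Naive cells were taken at 0 days of culture and Th2 cells at 6 days. For Th2 cells, naive cells were stimulated on plates with anti-CD3 (10 ug/mL) and anti-CD28 (1 ug/mL) in medium with IL-4 (50 ng/mL) and an antibody that neutralises interferon gamma (10 ug/mL). On day 3 they were moved to the same medium without the stimulating antibodies and with IL-2 (30 IU/mL). The labels do not say how or in which cells Setdb1 was deleted, nor whether replicates came from different animals or cultures, and p-values therefore measure only the spread between these libraries. The comparison addressed which parts of Th2 polarisation take place in cells labelled Setdb1 KO.

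A naive CD4 T cell is a resting cell that circulates through lymphoid organs under the factors KLF2, FOXO1 and TCF1. Antigen receptor stimulation drives it into growth and division, and IL-4, acting through its receptor and STAT6, raises GATA3, the master regulator of Th2 cells, which opens the linked cytokine genes Il4, Il5 and Il13. T helper 1 (Th1) cells instead use T-bet (Tbx21), STAT4 and interferon gamma (Ifng), and Th2 cells keep that programme low. SETDB1 is an enzyme that places the silencing mark H3K9me3 (trimethylation of lysine 9 on histone H3).

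Naive libraries labelled Setdb1 KO held 12774598 to 15335381 reads and Th2 libraries 36260766 to 44718627, against 10019187 to 18510982 and 10140907 to 13257516 in WT. Genes detected at equal depth numbered 15878 to 22222 in naive libraries labelled Setdb1 KO, highest in replicate 2, and 17036 to 17706 in their Th2 libraries. Naive WT replicates 1 and 3 stood apart in the same way, with 21253 and 25556 genes. Markers of CD4 T cells (Cd3e, Cd3d, Cd3g, Cd4, Thy1 and Lck) summed to between 61420 and 77540 normalised counts in naive and 31210 and 35930 in Th2 libraries labelled Setdb1 KO. In bulk RNA, fewer cells of a type and less RNA per cell cannot be told apart.

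Setdb1 itself was examined first. Its normalised read count, the reads of a gene divided by a size factor of the library, was 1103, 932.6 and 983.6 in the naive libraries labelled Setdb1 KO and 8070, 9044 and 8342 in the Th2 libraries. All 3 Th2 values lay above all naive values, a log2 difference of 3.08 ± 0.12 (standard error, limma on log2(value + 1), adjusted p = 1.01e-13). In WT culture the gene fell by 0.68 on the log2 scale, so that the culture effects differed by 3.76 ± 0.16 (adjusted p = 6.08e-12). Since reads of all exons are summed, the value does not tell reads of deleted exons from others, and the label cannot be checked by it. The authors' H3K9me3 peak lists held 1708 regions in Th2 cells labelled Setdb1 KO and 12233 in WT Th2 cells. In naive cells they held 1163 and 9659. There was 1 list per group, and the groups are called by their labels throughout.

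Among 17254 genes, those with a normalised count of at least 10 in 2 or more of the 18 RNA libraries, 9231 (53.5%) differed between Th2 and naive libraries labelled Setdb1 KO at an adjusted p under 0.05. Of these 4885 (28.3% of all genes) were higher and 4346 (25.2%) lower in Th2 cells. By at least 2-fold 3147 genes (18.2%) rose and 2526 (14.6%) fell. In 63.5% of genes the 3 naive and 3 Th2 values did not overlap. The median log2 change over all genes was -0.03. WT culture gave 11372 genes (65.9%), 5660 higher (32.8%) and 5712 lower (33.1%), a split that with reads thinned to equal totals was 4141 and 7444. The WT and Setdb1 KO contrasts share no library, and across genes their log2 changes correlated with r = 0.701 as a description.

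Most of the WT rises, and just over 1 in 2 of the WT falls, were also called in libraries labelled Setdb1 KO. Of 4118 genes that rose at least 2-fold in WT culture (23.9% of all genes), 2755 (66.9%) also rose, 1155 were not called and 208 fell in libraries labelled Setdb1 KO. Of 3893 genes that fell at least 2-fold in WT (22.6%), 2143 (55.0%) also fell, 1624 were not called and 126 rose. The median log2 change of the rising genes was 2.52 in WT against 1.41 in those labelled Setdb1 KO, and that of the falling genes was -2.09 and -0.95. Selection by the WT values favours larger effects in WT. Read from the other side, of the 3147 genes that rose at least 2-fold in libraries labelled Setdb1 KO 2463 (78.3%) rose in WT, 594 were not called there and 90 fell, with medians of 2.64 and 2.36. Of the 2526 that fell 1762 (69.8%) fell in WT, 596 were not called and 168 rose.

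Whether the culture effects differed was tested directly as an interaction. It called 7122 genes (41.3%), 3575 (20.7%) with the effect in libraries labelled Setdb1 KO above that in WT and 3547 (20.6%) below. That split depends on the scaling. With DESeq2 on recovered reads 3575 genes were above and 3631 below, and with the scaling of edgeR 4106 and 3146. With reads thinned to equal totals of 10019187 per library, 5646 genes were above and 2202 below and the median difference over all genes moved from 0.103 to 0.475, while the share of higher genes within the Setdb1 KO contrast was 51.3% against 52.9%. Reads of ribosomal protein genes moved with these groups, at 6.34 to 7.14% of all reads in Th2 WT, 3.01 to 4.13% in naive WT, 2.48 to 2.60% in naive and 2.25 to 2.37% in Th2 libraries labelled Setdb1 KO. Their part in the result was not tested, and differences of effects below are relative to the authors' scaling.

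**Figure D1:**
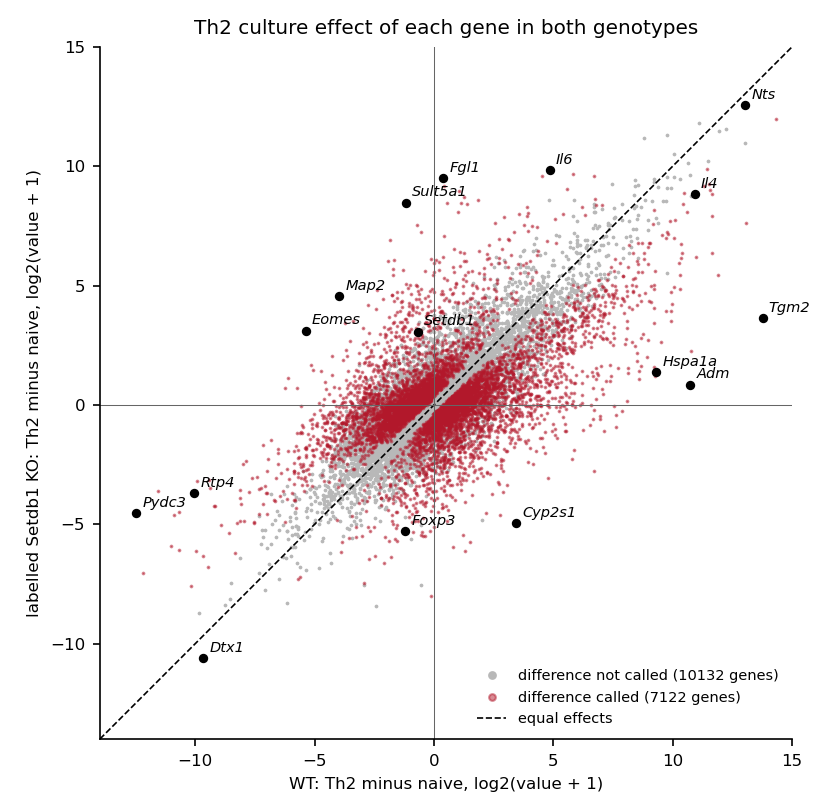
Change from naive to Th2 cells for each of 17254 genes, in WT on the x axis and in libraries labelled Setdb1 KO on the y axis, both as limma log2 differences of log2(value + 1). Red points are the 7122 genes whose effects differed at an adjusted p under 0.05, the dashed line marks equal effects, and genes such as Nts lie near it while Tgm2 and Fgl1 lie far from it.

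In libraries labelled Setdb1 KO 10 of 11 tested Th2 cytokine genes rose and 0 fell, against 28.3% of all genes that rose. Their median log2 change was 8.85, or 7.80 with the 5 genes that had no read in naive libraries set to a lower bound, against -0.03 over all genes. The member that did not pass was Il9, named after its values were seen (log2 2.38 ± 1.01, adjusted p = 0.0555). Il4, the cytokine that reinforces the Th2 fate, was at 0, 1.39 and 0 in naive and at 620.6, 663.1 and 567 in Th2 libraries labelled Setdb1 KO (log2 8.85 ± 0.27, adjusted p = 3.25e-15). Il13, which acts on mucus and smooth muscle, was at 0, 1.39 and 0 and then at 1166, 1115 and 366.2. Il5, the growth factor of eosinophils, had no read in naive libraries and 996.9, 1080 and 453.1 normalised counts in Th2 libraries. Set against 3 reads in each library, a limit for counting error alone, Il5 was at least 223.5-fold higher. In each of these genes the naive and Th2 values were far apart, and Th2 replicate 3 was the lowest Th2 library in all 3.

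The sequences upstream of genes of this locus are shown because they are the targets of STAT6 and GATA3, and those of Nts and Adm because these genes mark a shared and an unshared response described further on. Each is the 250 bases before the start site, read 5′ to 3′ on the gene's strand, from RefSeq on GRCm38 (mm10), with motif matches in capitals.
Il4, chr11:53618666-53618915, minus strand: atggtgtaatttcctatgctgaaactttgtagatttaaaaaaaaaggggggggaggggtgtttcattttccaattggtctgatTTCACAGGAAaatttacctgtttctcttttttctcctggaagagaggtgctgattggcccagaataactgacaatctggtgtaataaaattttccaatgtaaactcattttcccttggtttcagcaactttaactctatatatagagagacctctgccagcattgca
Il13, chr11:53634703-53634952, minus strand: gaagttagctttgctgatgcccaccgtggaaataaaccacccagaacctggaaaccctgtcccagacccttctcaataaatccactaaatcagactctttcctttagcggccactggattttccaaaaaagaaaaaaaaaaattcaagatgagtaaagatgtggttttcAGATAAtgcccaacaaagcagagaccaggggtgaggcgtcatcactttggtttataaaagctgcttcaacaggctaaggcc
Il5, chr11:53720544-53720793, plus strand: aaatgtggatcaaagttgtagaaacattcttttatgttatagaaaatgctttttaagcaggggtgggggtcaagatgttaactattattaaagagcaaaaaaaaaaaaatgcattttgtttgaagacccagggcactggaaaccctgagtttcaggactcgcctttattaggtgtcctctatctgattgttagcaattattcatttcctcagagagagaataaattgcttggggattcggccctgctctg
Nts, chr10:102490419-102490668, minus strand: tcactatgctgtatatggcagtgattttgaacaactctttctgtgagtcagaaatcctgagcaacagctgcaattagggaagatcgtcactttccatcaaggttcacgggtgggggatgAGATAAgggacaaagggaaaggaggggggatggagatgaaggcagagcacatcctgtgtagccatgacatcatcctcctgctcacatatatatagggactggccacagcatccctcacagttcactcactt
Adm, chr7:110627407-110627656, plus strand: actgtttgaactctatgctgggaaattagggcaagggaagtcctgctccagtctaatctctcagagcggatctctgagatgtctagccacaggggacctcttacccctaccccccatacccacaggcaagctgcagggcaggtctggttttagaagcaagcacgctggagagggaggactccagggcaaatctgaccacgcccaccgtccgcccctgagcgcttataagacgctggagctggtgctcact
Searched on both strands were AGATAA, a form of the GATA motif, the STAT6 palindrome, TTC and GAA spaced by any 4 bases, and GGTGTGA, the T-box form. Counted backward from the start site at -1, Il4 held TTCACAGGAA at -167 to -158, Il13 held AGATAA at -81 to -76 and Nts held AGATAA at -131 to -126, while Il5 and Adm held none of the 3. Of 32851 RefSeq promoters, 9.99% held AGATAA, 5.85% the STAT6 palindrome and 3.33% GGTGTGA in the same 250 bases. A match is a description of letters and not of binding. In the authors' peak lists of Th2 cells, read over 250 bases before to 50 after a start, the Il13 start lay under peaks of open chromatin (ATAC-seq), H3K27ac and H3K4me1, marks of active regulatory DNA, in cells labelled Setdb1 KO and in WT alike. The starts of Il4 and Il5 shown here lay under H3K27ac and H3K4me1 peaks in both genotypes and under no ATAC peak in either, while a further listed Il4 start lay under ATAC and H3K27ac peaks in both. The Ifng start lay under no peak of these lists in either genotype, and that of Tbx21 under H3K4me1 alone in both.

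Cytokine genes outside that locus rose too. Il24, of the IL-10 family, had no read in naive libraries labelled Setdb1 KO and 2947, 3529 and 2637 normalised counts in Th2 libraries, at least 805-fold higher. Il10, an anti-inflammatory cytokine that Th2 cells also make, was at 0 and then at 3183, 3472 and 2085, at least 772-fold higher. Il6, a pleiotropic cytokine, was at 0 and then at 1006, 1170 and 633, whereas WT culture took it from a mean of 2.61 to 76.3. The difference of effects for Il6 was 4.97 ± 0.87 (adjusted p = 0.000124). At the Il6 start an H3K27ac peak was listed in Th2 cells labelled Setdb1 KO and not in WT, whose list was shorter (31251 against 40802 peaks).

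Set beside WT, 2 of the 11 cytokine genes rose more and 3 rose less in libraries labelled Setdb1 KO. These counts are near the shares of all genes, 20.7% above and 20.6% below. With DESeq2 on recovered reads they were 2 and 0. The Il4 effect was lower by 2.08 ± 0.37 on the log2 scale (adjusted p = 0.000148) and the Il13 effect by 2.12 ± 0.51 (adjusted p = 0.00247). Both calls were lost with count models on recovered reads (edgeR and DESeq2, highest adjusted p 0.184 for Il4 and 0.502 for Il13). For Il5 (adjusted p = 0.21), Il10 (0.634) and Il24 (0.572) the effects were not shown to differ. WT culture took Il4 from no read to 1957, at least 486-fold higher, and Il13 from no read to 2560, at least 635-fold higher.

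**Figure D2:**
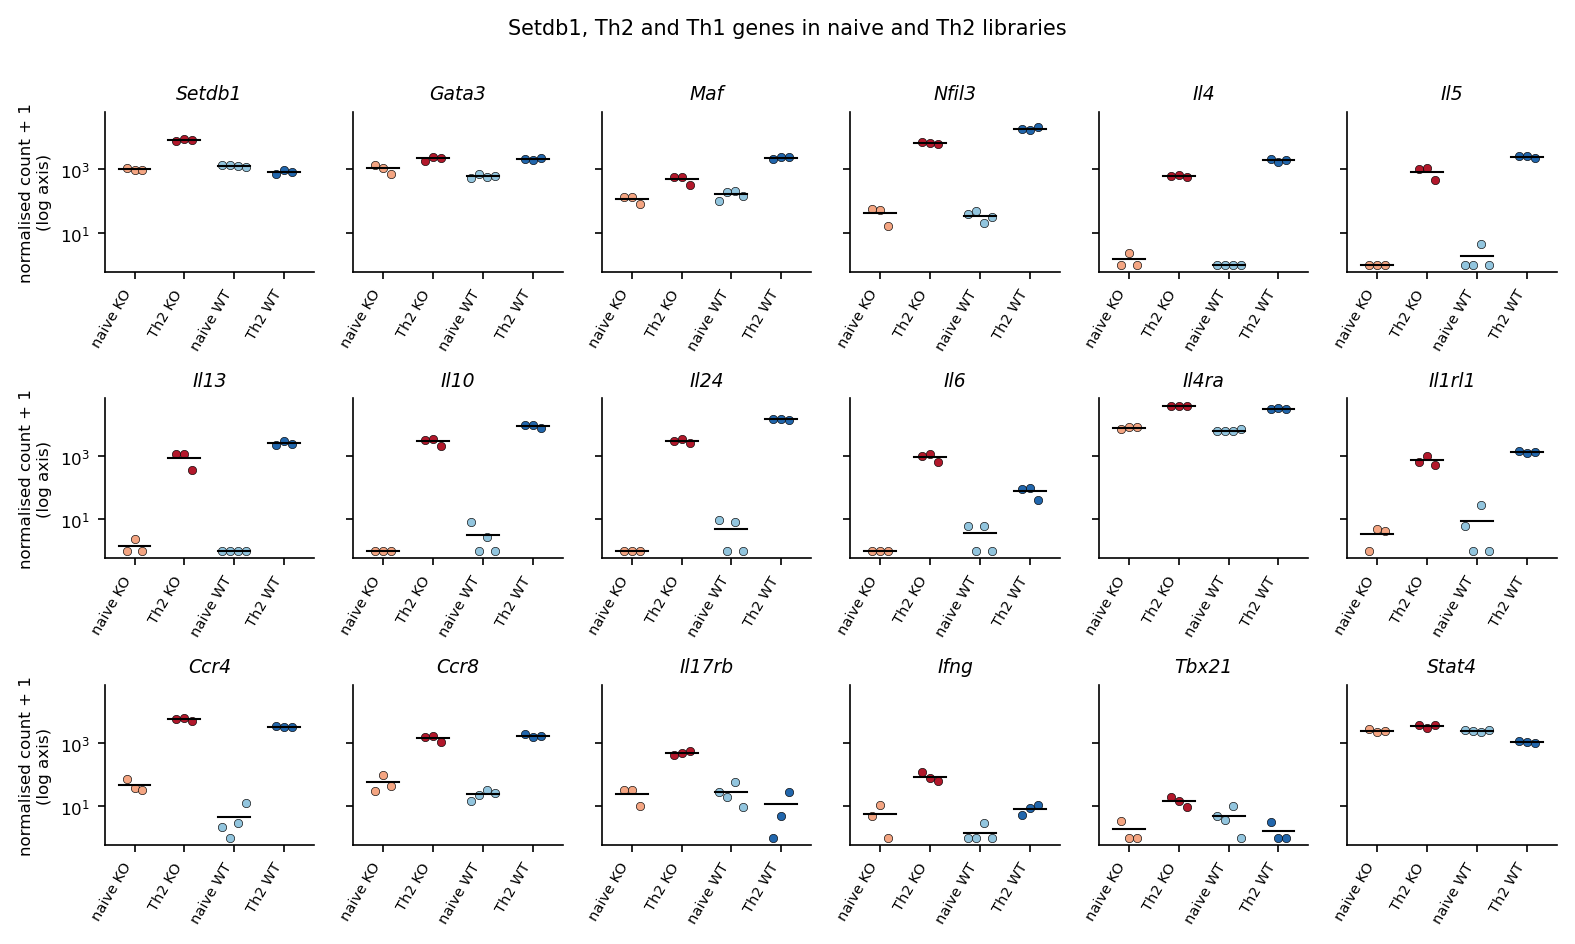
Normalised read count plus 1 (log axis) of 18 genes in every naive and Th2 library, with libraries labelled Setdb1 KO in orange (naive) and red (Th2) and WT in light and dark blue; points are libraries and black lines are means of 3 (4 in naive WT). The Th2 cytokine genes rise in both genotypes, and Setdb1 and Il17rb rise in libraries labelled Setdb1 KO.

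Among 7 tested Th2 receptor genes, 6 rose and 0 fell in libraries labelled Setdb1 KO, against 28.3% and 25.2% of all genes. The median log2 change was 4.42 there and 4.14 in WT. Il4ra, the chain that binds IL-4, went from 6986, 7997 and 7965 to 38390, 38600 and 38410, a log2 change of 2.33 ± 0.10 that was not shown to differ from WT (difference 0.03 ± 0.13, adjusted p = 0.898). Ccr4, the chemokine receptor that guides Th2 cells to skin and airway, went from 68.1, 34.7 and 31.0 to 5687, 6129 and 4831. Its effect was 3.05 ± 0.73 lower than in WT on the log2 scale, and the naive means were 44.6 in libraries labelled Setdb1 KO and 3.599 in WT. Ccr8, a second Th2 chemokine receptor, rose from a mean of 54.7 to 1401, and Il1rl1, the IL-33 receptor ST2, from 2.53 to 728. Il17rb, the IL-25 receptor, went the other way from WT. It was at 31.0, 30.5 and 9.17 in naive and at 401.3, 471.5 and 529.6 in Th2 libraries labelled Setdb1 KO, against means of 26.7 and 10.4 in WT (difference 6.58 ± 1.34, adjusted p = 0.000599). The Il17rb start lay under H3K27ac peaks in Th2 cells of both genotypes and under ATAC and H3K4me1 peaks in WT alone.

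Of 12 Th2 transcription factor genes 7 rose and 2 fell, against 28.3% and 25.2% of all genes. Gata3 was at 1414, 1102 and 729.1 in naive and at 1883, 2467 and 2371 in Th2 libraries labelled Setdb1 KO (log2 1.09 ± 0.20, adjusted p = 0.000139). The groups did not overlap, and the Th2 means were 2240 and, in WT, 2169. The smaller effect than in WT (difference -0.76 ± 0.28, adjusted p = 0.0354) was lost in 12 of 25 alternatives, with adjusted p up to 0.308. Maf, an activator of Il4, went from 133, 135 and 81.4 to 559.8, 571 and 321, with a difference from the WT effect of -1.83 ± 0.34 (adjusted p = 0.000244). Nfil3, a basic leucine zipper factor, rose from a mean of 40.7 to 6994. Irf4 and Batf, which act together downstream of the antigen receptor, rose by 3.83 ± 0.19 and 2.75 ± 0.15, and their effects were 1.61 and 1.64 lower than in WT. Pparg, a nuclear receptor, had no read in naive libraries and a mean of 391 in Th2 libraries, at least 103-fold higher. Zfpm1, whose product FOG-1 binds GATA factors, and Stat6 fell by 0.64 and 0.60. In WT Stat6 rose by 0.29. For 9 of the 12 genes the effect was below that in WT and for 2 above it, against 20.6% and 20.7% of all genes. With reads thinned to equal totals these counts were 8 and 2.

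Genes of IL-4 and IL-2 signalling moved in both directions, 7 of 14 higher and 6 lower, against 28.3% and 25.2% of all genes. Il2ra, the high-affinity IL-2 receptor chain, went from 173.5, 159.6 and 138.7 to 18620, 24730 and 24510, with no overlap (log2 7.15 ± 0.21). Il2rb and the feedback inhibitor Cish rose by 4.08 ± 0.20 and 3.24 ± 0.15. Il2rg, the shared gamma chain, and Jak1 fell by 1.36 and 1.30, as they did in WT. Socs3, an inhibitor of STAT3 signalling, moved against WT: it fell from 3491, 2430 and 2875 to 835.6, 986.4 and 805.8 in libraries labelled Setdb1 KO, while its WT means went from 1777 to 5096 (difference -3.27 ± 0.23, adjusted p = 3.57e-09). Irs2, an adaptor of the IL-4 receptor, likewise fell by 1.22 against a WT rise of 0.54. For 11 of the 14 genes the effect was below that in WT, against 20.6% of all genes, and for 9 with reads thinned to equal totals.

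The lists of the other helper fates moved in different ways. In libraries labelled Setdb1 KO 18 of 24 Th1 genes rose and 5 fell, against 28.3% and 25.2% of all genes. Their median log2 change was 3.15 (3.03 with 2 genes at their bound), against 1.55 in WT. The effect was above that in WT for 9 of the 24 genes and below for 4, against 20.7% and 20.6% of all genes. With reads thinned to equal totals these counts were 12 and 4. Cxcr6, a chemokine receptor, went from a mean of 6.04 to 2319 and rose in WT too, with effects not shown to differ (adjusted p = 0.873). Ifng was at 3.72, 9.72 and 0 in naive and at 114, 74.3 and 59.5 in Th2 libraries labelled Setdb1 KO (log2 4.45 ± 0.69, adjusted p = 1.78e-05). WT means were 0.45 and 7.15, and the effects were not shown to differ (1.86 ± 0.94, adjusted p = 0.124). Tbx21 was at 2.48, 0 and 0 and then at 17.9, 13.4 and 8.49, while its WT means were 3.88 and 0.67 (difference 4.52 ± 1.00, adjusted p = 0.00124). Eomes, the related T-box gene, rose from 14.9, 5.55 and 16.1 to 153, 86.9 and 83.9 and fell in WT (difference 8.48 ± 0.91). Stat4 rose by 0.51 ± 0.14 against a WT fall of 1.14. Il12rb2, an IL-12 receptor chain, rose from a mean of 20.2 to 92.8, a smaller effect than in WT (difference -2.34 ± 0.58). Havcr2, which encodes TIM-3, rose from 1.24, 1.39 and 0 to 280.1, 314 and 233. Il18r1, an IL-18 receptor chain, fell by 3.97, as it did in WT.

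Regulatory T cell (Treg) genes split into 7 higher and 5 lower of 13, against 28.3% and 25.2% of all genes. Foxp3, the Treg master regulator, was at 195, 187 and 157 in naive libraries labelled Setdb1 KO and at 2.38, 4.93 and 3.997 after culture (log2 -5.28 ± 0.81, adjusted p = 1.52e-05). In WT it went from a mean of 38.4 to 21.1 without passing (adjusted p = 0.164), and the effects differed by -4.07 ± 1.10 (adjusted p = 0.00583). Lrrc32, which displays latent TGF-beta, and Entpd1, the ectonucleotidase CD39, rose from means of 0.38 and 8.13 to 792 and 2562. Nrp1 fell by 1.06 where WT rose by 3.28 (difference -4.34 ± 0.41). Of 12 follicular helper genes 7 fell and 3 rose, against 25.2% and 28.3% of all genes. Bcl6, their master regulator, fell by 3.38 ± 0.37 and Btla by 2.39 ± 0.20, while Icos, a costimulatory receptor, rose by 4.26 ± 0.14. Tox, which fell from 1590, 1339 and 1012 to 81.1, 101 and 181, fell by 9.39 in WT, a difference of 5.90 ± 0.61. Of 7 Th17 genes 1 rose and 2 fell, against 28.3% and 25.2% of all genes. Il17a reached 9.48 against 59.5 in WT. Rora and Ahr fell by 1.04 and 1.01 where WT rose by 1.92 and 2.80, with differences of -2.96 ± 0.33 and -3.81 ± 0.51. The fall of Ahr in libraries labelled Setdb1 KO was lost in 5 of 18 alternatives (adjusted p up to 0.0955).

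In libraries labelled Setdb1 KO all 19 naive and quiescence genes fell, against 25.2% of all genes. Their median log2 change was -2.90, against -0.03 over all genes. In WT 17 of 19 fell, with a median of -1.88. Klf2, which keeps naive cells resting and circulating, fell from a mean of 3413 to 157. Tcf7, which encodes TCF1, went from 21210, 15560 and 11900 to 487, 667 and 934, and the zinc finger gene Klf3 from 1487, 1120 and 1282 to 34.6, 38.1 and 49.5. Both fell less than in WT, with differences of 2.44 ± 0.29 (adjusted p = 1.65e-06) for Tcf7 and 3.30 ± 0.89 (adjusted p = 0.00552) for Klf3. The Klf3 call was lost without the 3 naive libraries that stood apart, an alternative chosen after seeing the data (adjusted p = 0.0655). S1pr1, the receptor that lets T cells leave lymph nodes, fell by 4.26 ± 0.12 against 1.15 in WT. In the list as a whole 10 genes had an effect below that in WT and 5 above, against 20.6% and 20.7% of all genes. With reads thinned to equal totals the numbers were 8 and 6.

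Of 19 chemokine receptor and homing genes 8 rose and 9 fell, against 28.3% and 25.2% of all genes. Ccr9, a receptor for homing to gut, was at 169, 303 and 284 in naive and at 1.59, 0.45 and 0 in Th2 libraries, and the integrin chain Itga4 fell from a mean of 9087 to 241. Ccr2, a receptor for inflamed tissue, rose from 8.74 to 469. The effects of Ccr9, Itga4 and Ccr2 were not shown to differ from WT (adjusted p = 0.516, 0.969 and 0.52).

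In libraries labelled Setdb1 KO all 22 cell cycle and all 25 DNA replication genes rose, against 28.3% of all genes. Their median log2 changes were 4.38 and 2.27. In WT the numbers were 22 and 24, with medians of 6.34 and 2.34. Ube2c, of the mitotic ubiquitin ligase, went from 39.7, 29.2 and 57.3 to 3108, 3316 and 3979. Ccnb1, the mitotic cyclin, went from 28.5, 45.8 and 22.9 to 2552, 2373 and 2332, and Plk1, a mitotic kinase, from a mean of 52.5 to 1757. Neither the Ccnb1 effect (adjusted p = 0.766) nor that of Plk1 (adjusted p = 0.519) was shown to differ from WT. Ccnb2 rose by 4.97 ± 0.38, which was 3.07 ± 0.52 less than in WT, from a naive mean of 104 against 6.97 in WT. Cell cycle genes had an effect below that in WT in 14 of 22 cases and above in 1, against 20.6% and 20.7% of all genes. With reads thinned to equal totals the counts were 12 and 3. Among replication genes Rrm2 and Tyms, which make DNA precursors, rose by 4.16 ± 0.24 and 3.45 ± 0.19, with differences from WT that did not pass (adjusted p = 0.299 and 0.14). Replication genes had an effect above that in WT in 7 of 25 cases and below in 5, near the shares of all genes (20.7% and 20.6%). With reads thinned to equal totals these counts were 11 and 3.

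Metabolic genes rose, glycolysis less than in WT. In libraries labelled Setdb1 KO 13 of 15 glycolysis genes rose and 0 fell, against 28.3% and 25.2% of all genes. Their median log2 change was 2.28, whereas all 15 rose in WT at a median of 4.04. For 14 of 15 the effect was below that in WT and for 0 above, against 20.6% and 20.7% of all genes. With reads thinned to equal totals it was below for 13. Tpi1, triose phosphate isomerase, went from 322.1, 347 and 386.4 to 8263, 8552 and 8738, against WT means of 344 and 38490 (difference -2.28 ± 0.27, adjusted p = 1.8e-06). Pgk1, phosphoglycerate kinase, rose by 3.32 ± 0.14 and had a difference of -2.43 ± 0.19. Hk2, hexokinase 2, rose from 7.43, 4.16 and 4.59 to 2105, 2656 and 2262, an effect not shown to differ from WT (adjusted p = 0.551). Of 20 cholesterol synthesis genes 18 rose, against 28.3% of all genes, among them Fdps (log2 3.04 ± 0.19) and Sqle (2.52 ± 0.23). Of 21 oxidative phosphorylation genes 14 rose and 2 fell, against 28.3% and 25.2% of all genes, with a median log2 change of 0.46. In the list of growth and ribosome biogenesis genes 12 of 19 rose and 1 fell, against 28.3% and 25.2% of all genes. Its median was 0.80 against -0.22 in WT. Cad, which starts pyrimidine synthesis, rose from a mean of 837 to 4114 in libraries labelled Setdb1 KO and from 680 to 970 in WT (difference 1.81 ± 0.19). The amino acid transporter gene Slc7a5 rose by 2.60 ± 0.13, an effect not shown to differ from WT (difference 0.04 ± 0.18, adjusted p = 0.879).

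Genes of the secretory pathway and the unfolded protein response rose in 14 of 16 cases, against 28.3% of all genes. Xbp1, a driver of secretory capacity, went from 1015, 1137 and 949.3 to 12680, 14940 and 13350 (log2 3.72 ± 0.09), with an effect not shown to differ from WT (adjusted p = 0.155). The chaperone gene Pdia6 rose by 2.23 ± 0.16 and Dnajb9, a chaperone induced by stress of the endoplasmic reticulum, fell by 2.05. Among 16 activation genes 9 rose and 5 fell, against 28.3% and 25.2% of all genes. The costimulatory receptor Tnfrsf4 (OX40) rose from 558, 584 and 784 to 9886, 12590 and 9857, less than in WT (difference -2.61 ± 0.19). Tfrc, the transferrin receptor, rose by 3.89 ± 0.13, more than in WT (difference 2.05 ± 0.18). The early receptor-response genes Nr4a1, Cd69 and Myc fell by 2.04, 1.46 and 1.00.

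**Figure D3:**
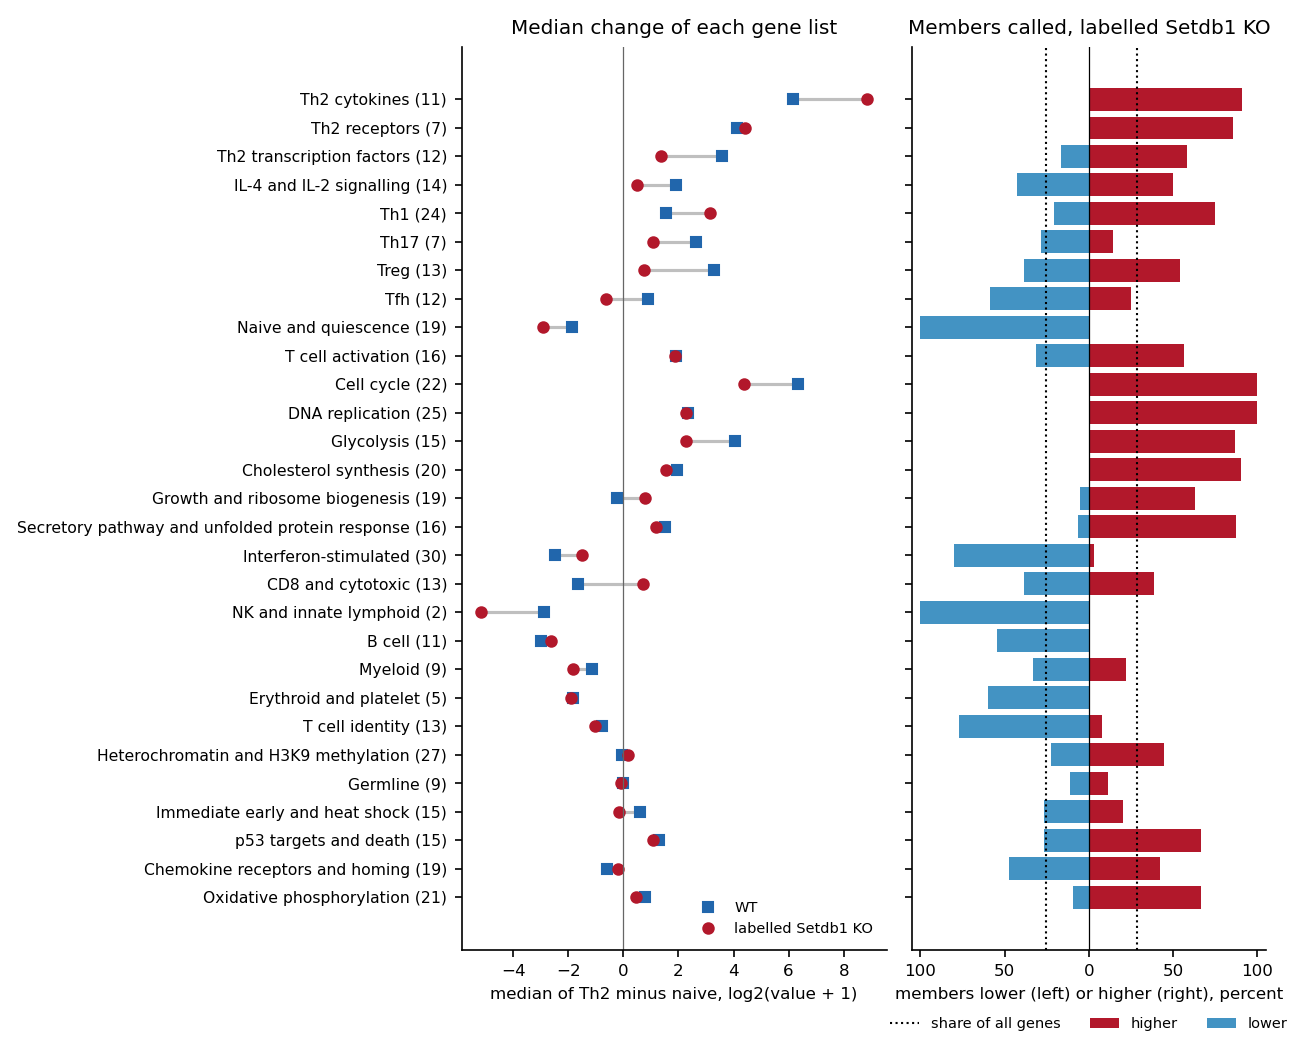
Left, median log2 change from naive to Th2 cells of each gene list, with the number of tested genes in brackets, in WT (blue squares) and in libraries labelled Setdb1 KO (red circles). Right, percent of each list's tested members called higher (red, to the right) or lower (blue, to the left) in libraries labelled Setdb1 KO, with dotted lines at the shares of all genes, 28.3% and 25.2%; all naive and quiescence genes are lower and all cell cycle and DNA replication genes higher. Medians of lists holding genes with no read in 1 group depend on the pseudocount, most for Th2 cytokines (8.85, or 7.80 with such genes at their bound).

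Interferon-stimulated genes fell in both genotypes. Of 30 tested 24 fell and 1 rose in libraries labelled Setdb1 KO, against 25.2% and 28.3% of all genes. Their median log2 change was -1.51, against 25 lower and a median of -2.49 in WT. Ifit3, an antiviral RNA-binding protein, went from 686.4, 1538 and 3599 to 51.7, 85.1 and 121, while the WT means were 899 and 0.67 (difference 4.92 ± 0.72, adjusted p = 2.09e-05). Rtp4 went from 1062, 1493 and 2939 to 94.96, 149.5 and 152, and in WT from 1133 to no read. Usp18, an inhibitor of interferon receptor signalling, fell from a mean of 1934 to 257. The exception was Mx1, which rose from 205.7, 351.1 and 808.2 to 836.8, 1068 and 1092 (log2 1.35 ± 0.46, adjusted p = 0.0178), a call lost without naive replicate 1 or 2 or Th2 replicate 2 or 3 of these libraries. For 18 of the 30 genes the effect was above that in WT and for 2 below, against 20.7% and 20.6% of all genes, and for 20 and 2 with reads thinned to equal totals. Ifi203 and Pydc3, interferon-inducible genes with close paralogs whose reads may be split, fell from means of 8282 and 6265 to 683 and 278, and in WT to 1.504 and to no read.

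Gzmb and Gzma, which encode granzymes, the proteases of cytotoxic granules, rose. Gzmb went from 6.20, 0 and 10.3 to 11880, 11070 and 5162 (log2 10.99 ± 0.76) and Gzma from 80.5, 69.4 and 97.5 to 5341, 5472 and 5520, and both rose in WT too, to 14960 and 12220. Of the 13 CD8 and cytotoxic genes tested 5 rose and 5 fell, against 28.3% and 25.2% of all genes. Prf1, which encodes perforin, fell from 261, 476 and 394 to 68.3, 50.6 and 4.996. Cd8a and Cd8b1 together summed to between 507 and 545 in naive and between 94.0 and 113 in Th2 libraries labelled Setdb1 KO.

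Markers of other cells were low after culture, apart from a few. Of 11 B cell genes 6 fell and 0 rose in libraries labelled Setdb1 KO, against 25.2% and 28.3% of all genes, and 5 were not called. The steepest fall was that of Ms4a1, from 71.9, 54.1 and 2.29 to 0, 0.45 and 0. The 5 B cell markers summed to 28.7 to 183 in naive and 46.5 to 52.45 in Th2 libraries, ranges that overlap. The 6 myeloid markers summed to 96.3 to 126 and then 2.69 to 19.5, with S100a8 and S100a9 at 0 in all 3 Th2 libraries. Erythroid and platelet markers summed to 68.1 to 491 and then 381 to 417. Almost all of the latter was Hba-a1, at 414.8, 378.8 and 379.7 (named after its values were seen), while Hbb-bs was at 0. The natural killer markers summed to at most 11.2 and 19.9. Emr1, which encodes a surface antigen best known from macrophages, went from 6.20, 5.55 and 12.6 to 4659, 5334 and 5438 (log2 9.22 ± 0.64), and rose in WT as well, to a mean of 1442 (difference 0.68 ± 0.88, adjusted p = 0.577). Of 13 T cell identity genes 10 fell and 1 rose, against 25.2% and 28.3% of all genes. Among those that fell were Cd3d (-1.91 ± 0.13) and Cd4 (-1.33 ± 0.13).

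Chromatin regulators and stress genes completed the lists. Of 27 genes of heterochromatin and H3K9 methylation 12 rose and 6 fell, against 28.3% and 25.2% of all genes, with a median log2 change of 0.15. Uhrf1 and Hells, which act at replicating DNA, rose by 2.83 ± 0.18 and 2.63 ± 0.22, and Chaf1a, of the histone chaperone CAF-1, by 3.35 ± 0.31. Atf7ip, a SETDB1 partner, fell from 10550, 10850 and 8530 to 2181, 2516 and 2636, as it did in WT from a lower start (2447 to 776). Tdrd9, a germline helicase that acts with piRNAs, was at 563.7, 328.9 and 314.1 in naive libraries labelled Setdb1 KO and at 7.55, 9.85 and 14.5 after culture, a fall of 5.11 on the log2 scale, and no naive or Th2 WT library held a read of it. It was 1 of 9 germline genes tested, of which 1 rose and 1 fell, against 28.3% and 25.2% of all genes. Of 15 immediate early and heat shock genes 3 rose and 4 fell, near the shares of all genes (28.3% and 25.2%). Hspa1a, the inducible chaperone HSP70, went from 22.3, 6.94 and 5.73 to 27.8, 21.0 and 34.5, while WT means went from 7.71 to 5499 (difference -7.93 ± 0.53, adjusted p = 1.41e-09). The p53 target and death list had 10 of 15 higher and 4 lower, against 28.3% and 25.2% of all genes. It was led by the cell cycle inhibitor Cdkn1a, which rose from a mean of 2.88 to 579.6.

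Among genes with a mean of at least 50 normalised counts and no overlap between groups, predicted genes left out, the largest fitted rise was that of Nts, which encodes the neuropeptide neurotensin. It had no read in naive libraries labelled Setdb1 KO and 4930, 7677 and 6045 normalised counts in Th2 libraries, at least 1648-fold higher. Its fitted log2 change (12.58) ran from 9.26 to 15.91 over the alternatives, and the effect was not shown to differ from that in WT (difference -0.47 ± 0.66, adjusted p = 0.614). ATAC peaks covered its start in Th2 cells of both genotypes. Tnfrsf8, the activation receptor CD30, went from 9.91, 2.78 and 0 to 15010, 16510 and 10800. The leukotriene receptor gene Cysltr1 rose from a mean of 0.41 to 1641, the integrin chain Itgb5 from 0.93 to 3596, the laminin chain Lama5 from 2.78 to 3130 and the secreted protein gene Adamtsl3 from 0.88 to 6289. None of these 4 effects was shown to differ from WT (adjusted p = 0.114, 0.0956, 0.798 and 0.66). Dtx1, a target of Notch, had the largest fitted fall among the same genes, from 3346, 2533 and 2875 to 0, 0.45 and 3.497. Ms4a4b, a membrane gene of resting T cells, fell from 5737, 5996 and 6436 to 12.3, 8.06 and 24.0, and the sialyltransferase gene St8sia6 from 4149, 4132 and 2860 to 13.1, 8.51 and 8.49. The effects of Dtx1, Ms4a4b and St8sia6 were not shown to differ from WT either (adjusted p = 0.474, 0.206 and 0.559). The small nucleolar RNA gene Snord87 fell from 2596, 3030 and 3192 to 8.74, 13.9 and 9.49, and in WT from a mean of 1796 to 514 without passing.

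Some rises of WT culture were smaller, not called or reversed in libraries labelled Setdb1 KO. Adm, which encodes the peptide adrenomedullin, was at 7.43, 1.39 and 0 in naive and at 4.37, 4.48 and 3.00 in Th2 libraries labelled Setdb1 KO (adjusted p = 0.279). WT took it from no read to a mean of 1735, at least 431-fold higher (difference -9.90 ± 0.87, adjusted p = 4.37e-08), yet ATAC and H3K4me1 peaks covered the Adm start shown above in both genotypes. Dpf1, a chromatin reader best known from neurons, went from 1.24, 2.78 and 0 to 7.15, 9.40 and 9.99, and in WT from no read to 1767. Tgm2, transglutaminase 2, rose from 105.3, 29.2 and 82.5 to 564, 1186 and 791, while WT rose from a mean of 2.80 to 49070, the largest shortfall (difference -10.11 ± 0.51, adjusted p = 5.73e-11). Cyp2s1, a cytochrome P450, fell from 869, 1114 and 885 to 43.7, 22.4 and 26.0 where WT rose from 192 to 1967. Tgfb3 fell as well, from a mean of 71.3 to 15.2, against a WT rise from 19.8 to 1141. The vessel peptide gene Apln and the growth factor gene Pdgfb reached 382 and 240 in WT and were not called in libraries labelled Setdb1 KO.

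**Figure D4:**
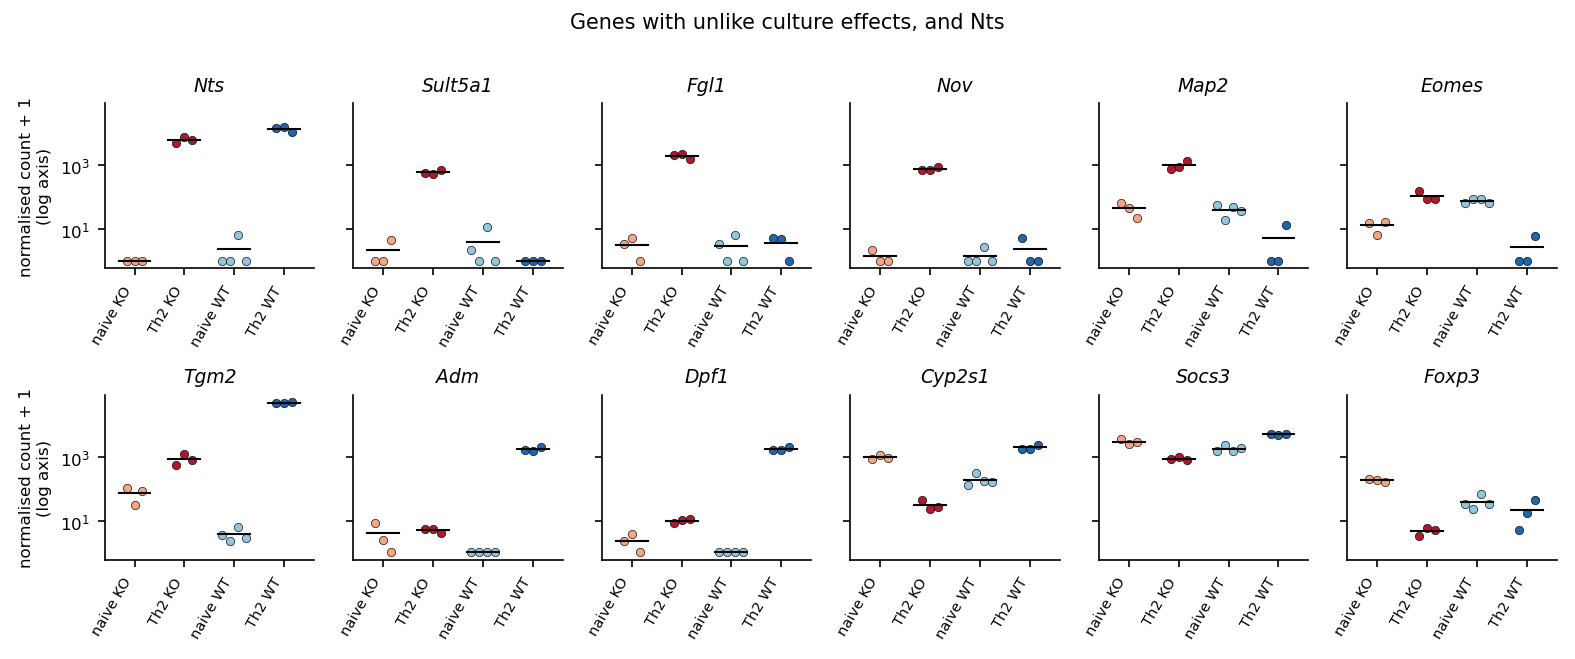
Normalised read count plus 1 (log axis) of 12 genes in every naive and Th2 library, with libraries labelled Setdb1 KO in orange (naive) and red (Th2) and WT in light and dark blue; points are libraries and lines are means of 3 (4 in naive WT). Sult5a1, Fgl1, Nov, Map2 and Eomes are high in Th2 libraries labelled Setdb1 KO and low in Th2 WT, Adm and Dpf1 are high in Th2 WT alone, and Cyp2s1 and Socs3 move in opposite directions in the 2 genotypes.

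Other genes rose in libraries labelled Setdb1 KO and did not rise in WT. Fgl1, a fibrinogen-like protein that binds the inhibitory receptor LAG-3, went from 2.48, 4.16 and 0 to 2011, 2257 and 1527, against WT means of 1.98 and 2.58 (difference 9.11 ± 1.16, adjusted p = 3.76e-06). Nov, a secreted matrix protein, went from 1.24, 0 and 0 to 682, 716 and 881, and the sulfotransferase gene Sult5a1 from 0, 0 and 3.44 to 565, 514 and 690.4. Map2, a neuronal microtubule protein, rose from 65.7, 43.0 and 21.8 to 767, 852 and 1374 and fell in WT from a mean of 39.1 to 4.16. Cacna2d1, a calcium channel subunit, rose from 0, 8.33 and 0 to 337, 266 and 181. In each of these 5 genes every Th2 library labelled Setdb1 KO exceeded every naive and every WT library. The genes were chosen for the largest differences from WT, so this separation largely follows from the choice. Between naive and Th2 libraries labelled Setdb1 KO alone, 63.5% of all genes did not overlap.

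Chromatin of Th2 cells was set beside these changes over whole genes, using RefSeq positions that matched 93.8% of tested genes. Of the genes that rose at least 2-fold in libraries labelled Setdb1 KO, 81.3% overlapped an H3K27ac peak of Th2 cells labelled Setdb1 KO (95% Wilson interval 79.9 to 82.7%), against 67.9% of genes that fell (66.0 to 69.8%) and 66.8% of genes not called (65.7 to 67.8%). For ATAC peaks the shares were 87.1, 73.8 and 77.6%, and for H3K4me1 88.7, 75.5 and 77.6%. The genes that rose also had a higher Th2 level, with a median of 329.7 normalised counts against 76.3 and 48.7, and the part of expression level in these shares was not tested. H3K9me3 regions of Th2 cells labelled Setdb1 KO overlapped 1.48% of genes that rose, 1.69% of genes that fell and 2.002% of genes not called. For the WT list these shares were 19.5, 18.9 and 14.9%. Genes that rose at least 2-fold in WT, less in libraries labelled Setdb1 KO and without a call there, numbered 740 with a position. An H3K27ac peak of cells labelled Setdb1 KO overlapped 67.0% of them (63.6 to 70.3%) and one of WT cells 71.0% (67.6 to 74.1%). For the 2221 genes that rose at least 2-fold in both genotypes these shares were 84.8 and 84.8%. The 740 genes were shorter, with a median length of 11840 bases against 17220. Their median Th2 level was 132.8 normalised counts against 414.5 in libraries labelled Setdb1 KO, and 472.1 against 486 in WT. The part of gene length and level in these shares was not tested. Each list comes from 1 group without replicates, so the intervals cover counting error only.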

How the data were processed

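RNA was measured by sequencing of total RNA in 18 libraries of 6 groups. The authors deposited gene values as a signal: read counts divided by a size factor of each library. The submitters' processing notes name cutadapt 1.3, TopHat2 2.0.5, BWA 0.7.10, DESeq, MACS2 2.1.0 and mm10, without roles. The annotation used for counting was not given in the sources used here, nor was the use of strand, and likewise the caller and scale of the H3K9me3 lists. The table held the same 39179 genes in 2 identical copies, of which the first was used. Peaks of ATAC-seq and histone marks were deposited by the authors as lists with a score per region, 13 in all, of which 10 were used.

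Values of at least 10 in 2 or more libraries left 17254 genes. Limma 3.58.1 (R 4.3.3) was fitted with a mean-variance trend to log2(value + 1) over all 18 libraries, with 6 group means, 12 residual degrees of freedom and Benjamini-Hochberg adjustment over all genes. A fold change on this scale understates that of low genes. The contrasts were Th2 minus naive in libraries labelled Setdb1 KO (3 against 3), the same in WT (3 against 4), and their difference. Every value in the table was a whole multiple of 1 read of its library within 0.01 reads (100% of values), so edgeR 4.0.16 and DESeq2 1.42.0 were run on the recovered reads as alternatives. They called 9344 and 9581 genes in the Setdb1 KO contrast. Other alternatives changed the pseudocount, the filter, the scaling, the libraries fitted and each replicate in turn. Intervals on shares and the floor of 3 reads cover counting error only. The 37 mitochondrial genes listed held no read in any library.

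Members and gene lists were chosen with earlier results of these data known. Named genes were a fixed set of 11, in each list the 4 called members with the largest change each way, and among genes with a mean of at least 50 the 12 largest changes each way whose groups did not overlap and the 8 largest differences from WT each way, all called and without predicted genes. Promoter sequences matched 67.1% of tested genes, so no share over promoters of gene classes is given. Some genes that the rule for named genes would name are not reported here.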

Additional observations from a re-analysis of the deposited data

Results flagged for a closer look

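The culture effects in libraries labelled Setdb1 KO and in WT differed in the interaction test (adjusted p under 0.05) for these named genes, given as the log2 effect in the former minus that in WT. The difference was 3.76 for Setdb1, -0.76 for Gata3, -1.83 for Maf, -2.08 for Il4, -2.12 for Il13, 4.52 for Tbx21, -2.34 for Il12rb2 and 1.65 for Stat4. Among the largest differences, those above WT were 9.66 for Sult5a1, 9.11 for Fgl1, 8.77 for Cacna2d1, 8.77 for Nov, 8.53 for Map2, 8.48 for Eomes, 7.97 for Pydc3 and 7.96 for Ifi203. Those below WT were -10.11 for Tgm2, -9.90 for Adm, -8.53 for Apln, -8.52 for Dpf1, -8.39 for Cyp2s1, -8.14 for Pdgfb, -8.06 for Tgfb3 and -8.04 for Fam183b. For Fam183b, at no read in naive libraries labelled Setdb1 KO, the call was lost with edgeR and DESeq2 on recovered reads.

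Among the 4 naive WT libraries, 1 value was marked as far from the others for each of 4 genes. The marked values were 3.62 normalised counts of Il5, 1.81 of Ifng, 43.5 of Il12rb2 and 6924 of Il4ra. The Ifng value was 1 read of naive WT replicate 3 (1.81 normalised counts). Both it and the Il5 value lay below 3 reads of that library (5.43). The marks of Il5 and Ifng therefore do not show that a library stood apart. For normally distributed values, chance marks about 1 in 20 groups of this size. That rate does not carry over to counts near 0.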

How the results depend on the processing

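The number of genes called in the Setdb1 KO contrast (9231) ranged from 8260 to 8973 without each replicate in turn and from 8344 to 9673 under the other alternatives. For WT (11372) the ranges were 10767 to 11601 and 9357 to 11585, and for the difference of effects (7122) 6360 to 7174 and 6294 to 7848. Without the 3 naive libraries that stood apart (naive WT replicates 1 and 3, naive replicate 2 labelled Setdb1 KO), an alternative chosen after seeing the data, the counts were 8880, 10820 and 6694. The labels state no pairing of naive and Th2 libraries. Deviations of same-numbered libraries labelled Setdb1 KO from their group means correlated at -0.002, -0.025 and -0.076. With 3 libraries per group such values can neither show nor exclude a pairing. With the replicate number as a block the Setdb1 KO contrast called 9246 genes, or 8893 with the compared groups alone.

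Of the WT rises, 2613 to 2812 were also called in libraries labelled Setdb1 KO without each replicate in turn, and of the WT falls 1926 to 2143. Counting only falls of at least 4-fold in WT, 1108 of 2077 were. Called members of the lists in the Setdb1 KO contrast (339) ranged from 327 to 347. Pdgfb, not called in that contrast, changed sign to 0.61 without naive replicate 2 or the libraries that stood apart, and to 0.08 without Th2 replicate 1 (range -1.0 to 0.61 without each replicate in turn). The Adm change was called without naive replicate 1 (log2 1.66, adjusted p = 0.0251, limma). The cause was not tested.

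With only peaks at or above the median score, genes that rose, fell and were not called held ATAC peaks in 74.1, 65.1 and 66.2% of cases, H3K27ac in 69.9, 58.6 and 58.1%, H3K4me1 in 75.5, 64.3 and 61.8%, and H3K9me3 in 0.984, 0.994 and 1.21%, fewer because fewer peaks were counted. With an overlap of at least 100 bp, ATAC shares were 83.6, 71.3 and 74.3%, and H3K27ac at genes not called was 65.5%. Depth limits values near the floor of 3 reads, which is 3.44 to 4.16 normalised counts in naive and 1.19 to 1.499 in Th2 libraries labelled Setdb1 KO.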
